A study of Homo sapiens with 18 samples.

Results

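This comparison asked what acetylcysteine changed when it was given together with dopamine. It set the 3 libraries labelled Dopamine +ROS Inhibitor against the 3 labelled Dopamine, which are 6 of the 18 libraries of the series, and its members were taken from the treatment labels alone. All 18 libraries were made from polyA RNA of human organoids grown from H9, an established line of embryonic stem cells, so every group stands on 1 cell line. To direct them to ventral forebrain fates they had been given the patterning protein SHH (100 ng/mL) together with purmorphamine (1 µM), an agonist of the same pathway, and dosing began at day 83. Organoids of the dopamine group received 1 µM dopamine in 100 µM ascorbic acid for 1 h a day over 1 week, closed by a last dose of 1 h after which they were frozen. Organoids of the dopamine + acetylcysteine group had 100 µM acetylcysteine placed in the medium ahead of the same dopamine dosing. Ascorbic acid, itself an antioxidant, was present in every group, and alone at 100 µM it was the vehicle of the control. Vehicle with and without acetylcysteine, and 1 µM cocaine with and without acetylcysteine, each had 3 libraries and served as reference for how acetylcysteine acted in other settings.

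Acetylcysteine is a cell-permeant precursor of cysteine and thereby of glutathione, the main thiol antioxidant of cells. Dopamine oxidises readily in culture medium and inside cells, where it gives hydrogen peroxide and reactive quinones, and cells answer such stress through a few well-studied programmes. NRF2 drives antioxidant genes, ATF4 drives the integrated stress response, HSF1 drives heat shock chaperones, and the unfolded protein response raises chaperones of the endoplasmic reticulum. Genes of these programmes, of sterol synthesis and of the cell types an organoid can hold are followed below in the 2 groups.

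Library totals ran from 23789195 reads in dopamine + acetylcysteine replicate 3 to 30327891 in dopamine replicate 3. The labels name no separate culture, batch or differentiation for any library, so p-values here measure only the spread among libraries that may be technical replicates. As a check on the labelled tissue, the interneuron gene GAD1 was 244, 230.0 and 285 CPM (reads of the gene scaled to library size) in the dopamine libraries and 343, 281 and 267 CPM with acetylcysteine, and the ventral forebrain and interneuron list summed to between 762.4 and 965.3 CPM over the 6 libraries. Its defining members NKX2-1 and LHX6 stayed below 1 CPM throughout, and HOXB3, a hindbrain gene, was present at 66.0 to 199.6 CPM, so regional identity was mixed. Mitochondrial ribosomal RNA from RNR2 took 0.856 to 0.894% of reads with dopamine and 0.749 to 0.864% with acetylcysteine. In bulk RNA, fewer cells of a type and less RNA per cell cannot be told apart.

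DDIT4 was the 1 gene of 18913 tested (0.00529%) that passed the test between dopamine with and without acetylcysteine, and it fell. DDIT4, also known as REDD1, restrains the growth kinase complex mTORC1 and is a shared target of hypoxia, ATF4 and p53 signalling. Its level was 214, 204 and 213 CPM in the dopamine libraries and 146, 159.9 and 134 CPM in those with acetylcysteine. The highest library with acetylcysteine lay well below the lowest without it. The means were 210.3 ± 5.55 CPM (SD, n = 3) and 147 ± 13.2 CPM (SD, n = 3), a difference of -0.52 on the log2 scale (SE 0.07, adjusted p = 0.0208, edgeR's quasi-likelihood test with Benjamini-Hochberg adjustment), or 30.3% less. On the authors' per-length scale (TPM), the mean was 433 with dopamine and 307 with acetylcysteine added. The call rested on nearly all of the 6 libraries. The adjusted p was 0.0885, 0.0811 and 0.0987 without dopamine replicates 1, 2 and 3, 0.179 and 0.304 without acetylcysteine replicates 1 and 3, and 0.0147 without replicate 2, with the log2 difference between -0.59 and -0.46 in all alternatives run.

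**Figure D1:**
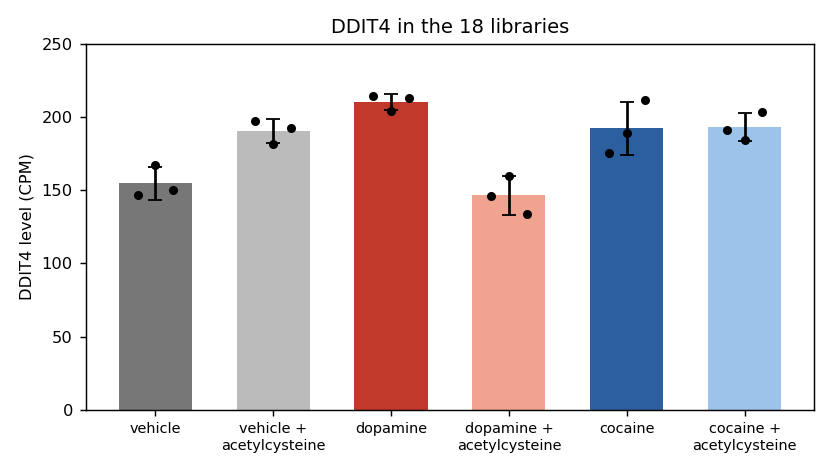
DDIT4 level in CPM (vertical axis, from 0) in each of the 18 libraries by group; bars are group means, error bars are SD of 3 libraries and points are libraries. The 3 libraries of dopamine + acetylcysteine lie between 133.5 and 159.9 CPM, below the 3 dopamine libraries, while the vehicle libraries with acetylcysteine lie above those without.

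The vehicle libraries gave the opposite order for this gene. DDIT4 stood at 147, 168 and 150.0 CPM with vehicle and at 197, 181 and 193 CPM with vehicle and acetylcysteine, a difference of 0.30 (log2) that did not pass the test (adjusted p = 0.823, edgeR). The acetylcysteine effect with dopamine minus that with vehicle was -0.82 (log2, SE 0.10, adjusted p = 0.00457, edgeR), and DDIT4 was the 1 gene called for this difference (0.00529% of those tested). No library enters both effects. With cocaine, DDIT4 was 176, 189 and 212 CPM alone and 191, 184 and 203 CPM with acetylcysteine, and the groups overlapped. The acetylcysteine effect with dopamine minus that with cocaine was -0.53 (log2, SE 0.10) and did not pass edgeR's test (unadjusted p = 6.83e-05, adjusted p = 0.956), while DESeq2 gave an adjusted p of 0.0193. Against plain vehicle, the same dopamine libraries were higher by 0.44 (log2, adjusted p = 0.00952, edgeR), and the libraries with dopamine and acetylcysteine differed by -0.08 (adjusted p = 0.9). These last values share libraries with the main comparison and are given side by side only.

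The promoters of DDIT4 and of 3 chaperone genes described below are shown because DDIT4 is the gene called, and because the chaperones are textbook targets of the endoplasmic reticulum stress response whose promoters hold its element. The chaperones were chosen for that match and are not the genes of largest difference. MANF and DNAJB9 of the same list differed by -0.27 and -0.24 (log2), beside -0.24 for HSP90B1, -0.21 for HSPA5 and -0.16 for CALR, and their windows hold no such element. Each line gives the 250 bases ahead of the RefSeq transcription start (GRCh38.p14), 5′ to 3′ on the gene's strand. Capitals in DDIT4 mark the core ACGTG of the hypoxia response element, and capitals in the other promoters mark the endoplasmic reticulum stress element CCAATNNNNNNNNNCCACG, searched on both strands.
DDIT4 (chr10:72273674-72273923, plus strand): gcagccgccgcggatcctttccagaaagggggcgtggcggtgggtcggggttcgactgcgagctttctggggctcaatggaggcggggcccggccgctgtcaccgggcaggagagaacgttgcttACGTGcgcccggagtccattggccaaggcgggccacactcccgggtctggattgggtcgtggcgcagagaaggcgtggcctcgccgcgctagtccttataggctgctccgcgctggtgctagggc
HSP90B1 (chr12:103930160-103930409, plus strand): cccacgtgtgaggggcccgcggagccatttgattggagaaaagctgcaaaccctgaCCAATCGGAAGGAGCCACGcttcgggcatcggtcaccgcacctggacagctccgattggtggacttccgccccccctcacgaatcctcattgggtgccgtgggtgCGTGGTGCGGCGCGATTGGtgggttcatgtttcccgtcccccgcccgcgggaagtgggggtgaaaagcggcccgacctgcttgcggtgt
HSPA5 (chr9:125241344-125241593, minus strand): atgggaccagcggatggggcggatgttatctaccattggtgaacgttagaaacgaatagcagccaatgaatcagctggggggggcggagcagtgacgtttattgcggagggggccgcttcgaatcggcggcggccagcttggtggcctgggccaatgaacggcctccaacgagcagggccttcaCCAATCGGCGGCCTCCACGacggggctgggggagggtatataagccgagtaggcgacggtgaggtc
CALR (chr19:12938359-12938608, plus strand): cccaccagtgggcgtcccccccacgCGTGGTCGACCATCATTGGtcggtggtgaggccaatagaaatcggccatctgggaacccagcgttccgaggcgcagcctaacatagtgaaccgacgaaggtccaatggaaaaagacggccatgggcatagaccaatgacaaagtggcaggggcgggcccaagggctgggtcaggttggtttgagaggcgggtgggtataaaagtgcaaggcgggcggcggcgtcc

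The DDIT4 window held the hypoxia core once, 125 to 121 bases ahead of the start, and this short motif occurs in 18.7% of all 27305 promoters of the same length. The stress element was found in 0.0806% of those promoters and in 6 of the 18 unfolded protein response genes with a promoter entry, namely HSPA5, HSP90B1, CALR, CANX, CRELD2 and XBP1. HSP90B1 held it on both strands, 194 to 176 and 89 to 71 bases ahead of the start, without overlap. A match describes the letters in the window and does not show that a factor was bound.

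The other genes nearest to the threshold had no adjusted p under 0.05 by edgeR. Over all genes, 837 had higher (4.43%) and 802 lower values (4.24%) with acetylcysteine at an unadjusted p under 0.05 (1639 in all, 8.67%), and 1447 (7.65%) had all 3 acetylcysteine libraries above all 3 dopamine libraries against 1413 (7.47%) with all 3 below. Among the 12694 genes at 5 CPM or more these shares were 7.74% and 9.17%. Among the 12 non-overlapping lower genes with the smallest p, 4 belong to sterol and fatty acid metabolism. STARD4, which carries cholesterol between membranes, was 114, 132 and 113 CPM with dopamine and 87.8, 93.6 and 89.2 CPM with acetylcysteine added. The difference was -0.41 (log2, SE 0.07, adjusted p = 0.0744, edgeR), with no overlap. CDKN1A, the cell cycle inhibitor p21 and a p53 target, was 112, 118 and 114 CPM and then 80.8, 87.1 and 79.8 CPM, or -0.47 (log2, adjusted p = 0.28, edgeR). Its vehicle level was 76.3, 84.9 and 87.6 CPM, a range that the acetylcysteine libraries shared.

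TAF1D, a subunit of the RNA polymerase I initiation factor, was 20.4, 20.7 and 19.0 CPM and 13.5, 16.1 and 13.8 CPM with acetylcysteine (-0.47 log2, adjusted p = 0.202, edgeR). DERL3, which serves degradation of misfolded proteins from the endoplasmic reticulum, was 11.7, 13.3 and 12.8 CPM and 8.54, 9.22 and 8.03 CPM (-0.55 log2). The groups did not overlap for either gene. The remaining lower genes of this set were KLHL28 (-0.34), DPH5, an enzyme of diphthamide synthesis (-0.30), and MAP3K7, the stress kinase TAK1 (-0.21, all log2 and each at an adjusted p of 0.28). DESeq2 on the same counts called 33 of the 18913 genes, 21 of them lower and 12 higher. Its calls included STARD4, CDKN1A, HSP90B1, HSPA5, HSPH1, INSIG1, IDI1, SCD, TAF1D and BHLHE40 on the lower side.

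**Figure D2:**
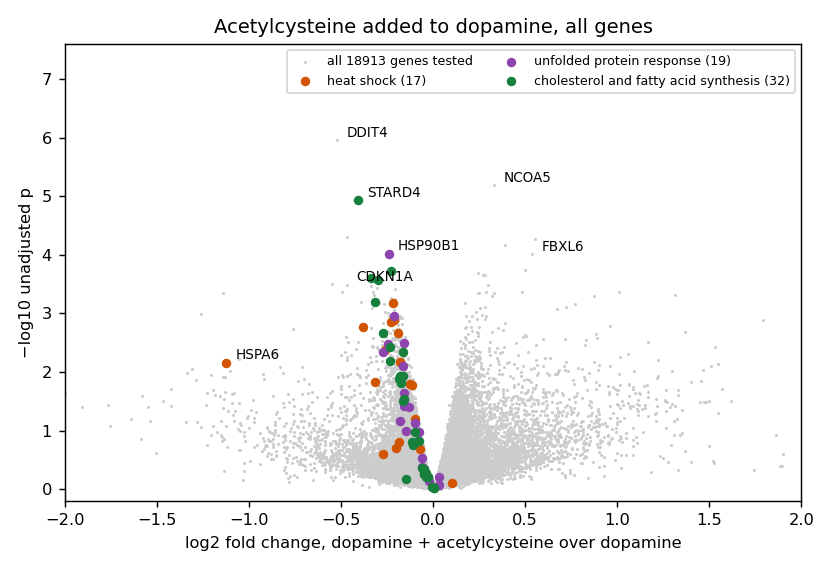
Each point is 1 of the 18913 genes tested: the log2 fold change of dopamine + acetylcysteine over dopamine (horizontal axis) against −log10 of the unadjusted p of edgeR's test (vertical axis); 40 genes lie beyond 2 log2 units and are not drawn. DDIT4 is the top point, and the coloured members of 3 gene lists lie mostly left of 0 without passing the adjusted test.

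Genes of cholesterol and fatty acid synthesis had lower values with acetylcysteine in 30 of 32 members, by small amounts. None of 32 measured members passed edgeR's test with the expression filter, 15 were lower at an unadjusted p under 0.05, and STARD4 passed without the filter (adjusted p = 0.011). DESeq2 called 4 members, STARD4 (adjusted p = 0.000205), SCD (0.000368), INSIG1 (0.0212) and IDI1 (0.0229), against 33 of all 18913 genes. The 15 with all 3 acetylcysteine libraries below all 3 dopamine libraries are 46.9% of the list, against 7.47% of all genes, none lay fully above, and the median difference was -0.13 (log2) beside 0.0023 over all genes. INSIG1, which holds the sterol sensor complex in the endoplasmic reticulum, was 170.4, 168 and 172 CPM with dopamine and 150.3, 129.9 and 123 CPM with acetylcysteine added (-0.34 log2, adjusted p = 0.28, edgeR). IDI1, an isomerase of the mevalonate pathway, was 305, 319.9 and 299.9 CPM and 258, 244 and 248 CPM (-0.30 log2). All 3 libraries with acetylcysteine were lower for both genes.

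HMGCS1, the synthase that opens the mevalonate pathway, was 1818, 1791 and 1791 CPM with dopamine and 1604, 1474 and 1508 CPM with acetylcysteine added (-0.24 log2). SCD, the desaturase that makes oleate, was 2178, 2336 and 2259 CPM and 1942, 1980.0 and 1863 CPM (-0.23 log2, adjusted p = 0.28, edgeR). HSD17B7 (-0.31 log2) and MSMO1 (-0.27 log2), enzymes of the later sterol steps, were also separate between the groups. FASN, the fatty acid synthase, overlapped at 768, 719 and 800.4 CPM and 738, 769 and 767 CPM. HMGCS1, MSMO1 and FASN were picked as examples after their values were seen.

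This list was also lower when acetylcysteine was added to vehicle, where the median over the same 32 genes was -0.17 (log2), and near 0 when it was added to cocaine, at 0.01. INSIG1 was 157, 163 and 154 CPM with vehicle and 125, 142 and 122 CPM with vehicle and acetylcysteine (-0.28 log2, adjusted p = 0.823, edgeR). With cocaine it was 163, 159 and 163 CPM alone and 174, 146 and 147 CPM with acetylcysteine. By edgeR no single gene of the list was called with vehicle or with cocaine, or for the difference between settings.

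**Figure D3:**
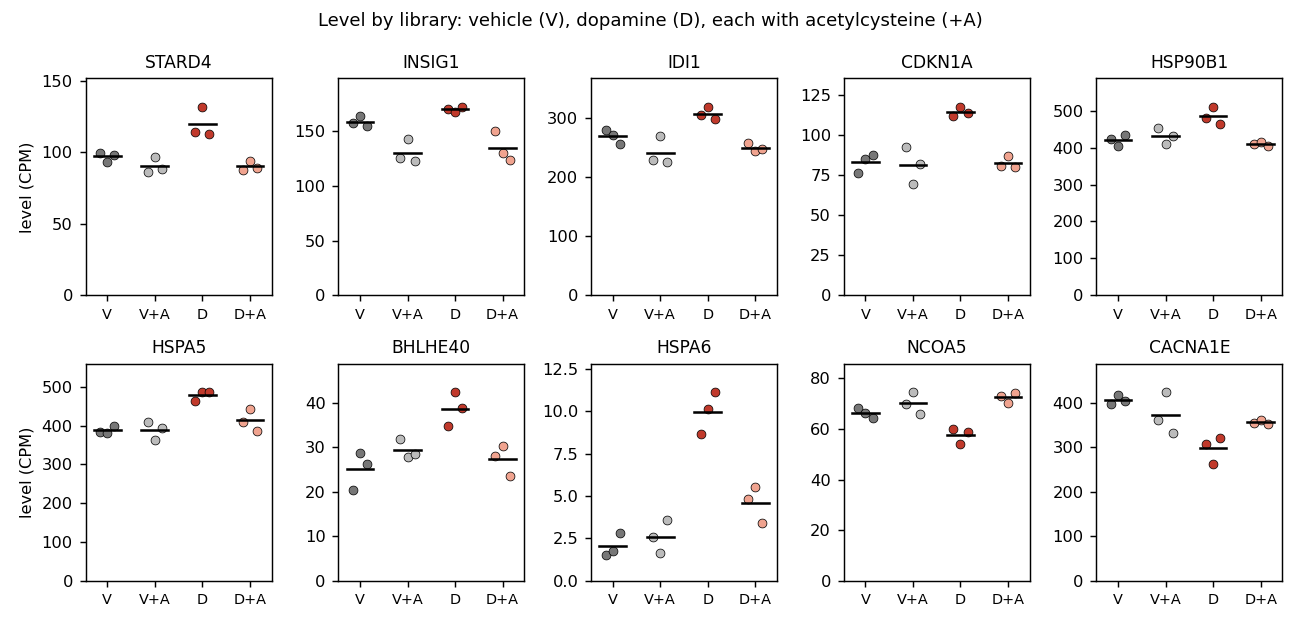
Level in CPM (vertical axes, each from 0) of 10 genes in the libraries of vehicle (V), vehicle + acetylcysteine (V+A), dopamine (D) and dopamine + acetylcysteine (D+A); points are libraries and lines are group means of 3. The first 8 genes are lower in all 3 D+A libraries than in all 3 D libraries, and NCOA5 and CACNA1E are higher.

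Heat shock genes were lower with acetylcysteine in 13 of 17 measured members without overlap (76.5%, against 7.47% of all genes and 9.17% of those at 5 CPM or more). None passed edgeR's test and 11 had an unadjusted p under 0.05. DESeq2 called HSPH1 (adjusted p = 0.0453), among its 33 calls over all 18913 genes. The median difference was -0.20 (log2), and it stayed between -0.23 and -0.18 in every alternative run. HSPA6, a stress-inducible HSP70 gene, was 8.68, 10.1 and 11.1 CPM with dopamine and 4.81, 5.54 and 3.38 CPM with acetylcysteine, a difference of -1.12 (log2, SE 0.36, adjusted p = 0.446, edgeR). The vehicle libraries, at 1.54, 1.75 and 2.82 CPM, lay below all 6. HSPA4L, a nucleotide exchange factor of the HSP110 family, was 46.9, 49.2 and 39.8 CPM and 30.4, 38.8 and 35.4 CPM (-0.38 log2).

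HSPH1, another HSP110 chaperone, was 202, 215 and 208 CPM with dopamine and 175, 186 and 175 CPM with acetylcysteine (-0.22 log2, adjusted p = 0.307, edgeR). The abundant HSP90AA1 was 1256, 1269 and 1216 CPM and 1106, 1029 and 1057 CPM (-0.23 log2). Both were chosen after their values were seen, and for both the groups were apart. HSPA1B (-0.32 log2) and HSPA1A (-0.27 log2) encode nearly identical HSP70 proteins and may share reads, so their split is uncertain. CRYAB, the small chaperone alpha-B crystallin, was the 1 member with a value above 0 and is named for that, at 0.10 (log2, unadjusted p = 0.794, edgeR). Added to vehicle or to cocaine, acetylcysteine gave a median of 0.02 over these genes in either case. The heat shock element GAANNTTCNNGAA, searched on both strands, lay in the promoters of 3 of the 15 members with an entry (HSPA6, HSPA8 and CHORDC1) and in 0.439% of all promoters of that length.

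The unfolded protein response list had 8 of 19 members below without overlap (42.1%, against 7.47% of all genes) and none above, with a median of -0.16 (log2). None was called by edgeR and 10 were lower at an unadjusted p under 0.05. DESeq2 called HSP90B1 (adjusted p = 0.000368) and HSPA5 (0.0426), among its 33 calls over all 18913 genes. HSP90B1, the endoplasmic reticulum paralogue of HSP90, was 479, 510.3 and 464 CPM with dopamine and 409, 415 and 404 CPM with acetylcysteine (-0.24 log2, SE 0.05, adjusted p = 0.23, edgeR). HSPA5, the master chaperone BiP, was 464, 486 and 486 CPM and 410.4, 444 and 386 CPM (-0.21 log2, adjusted p = 0.339, edgeR). Both held the stress element in the promoters printed above, as did CALR, the lectin chaperone calreticulin, at 412, 419 and 412 CPM and 373, 379 and 358 CPM (-0.16 log2). All 3 genes were separate between the groups.

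MANF, a secreted factor of stressed endoplasmic reticulum, differed by -0.27 (log2) and DNAJB9, a co-chaperone of BiP, by -0.24, both without overlap. HERPUD1, of the degradation machinery, was tight in the dopamine libraries at 53.4, 53.4 and 53.2 CPM and stood at 48.9, 48.3 and 46.3 CPM with acetylcysteine (-0.16 log2, chosen after its values were seen with CALR). SDF2L1 and EDEM1, targets of the same response, were the 2 members with values above 0, at 0.03 and 0.03 (log2), and were also chosen after their values were seen. The medians with vehicle and with cocaine were 0.03 and -0.06.

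**Figure D4:**
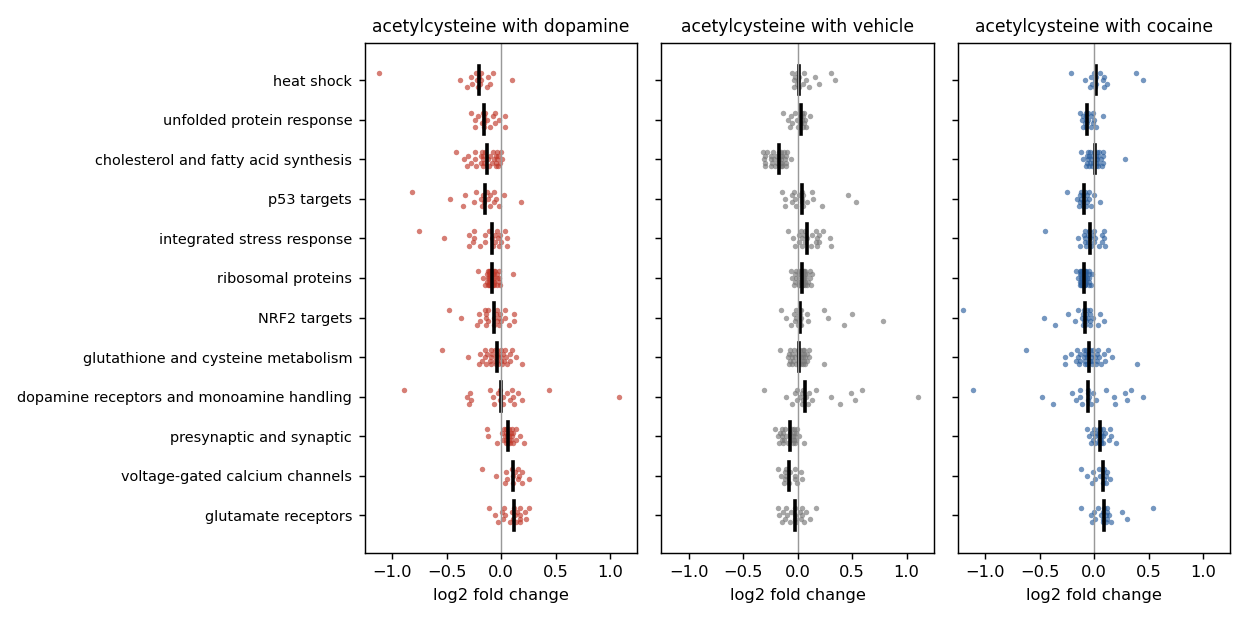
Log2 fold change of acetylcysteine over no acetylcysteine (horizontal axis, drawn within ±1.2) for every measured member of 12 gene lists with dopamine, with vehicle and with cocaine; points are genes and black lines are list medians. Heat shock and unfolded protein response medians are -0.20 and -0.16 with dopamine and between -0.06 and 0.03 in the other settings, while the sterol list is lower with vehicle as well.

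In the integrated stress response list, DDIT4 was the 1 of 23 members called by edgeR, and 5 (21.7%, against 7.47% of all genes) were below without overlap. PHGDH, the first enzyme of serine synthesis, was 68.9, 79.7 and 70.3 CPM with dopamine and 57.6, 64.2 and 57.2 CPM with acetylcysteine (-0.29 log2, adjusted p = 0.484, edgeR), without overlap. SESN2, a stress-induced inhibitor of mTORC1 like DDIT4, was 36.3, 41.1 and 41.2 CPM and 32.9, 35.0 and 31.9 CPM (-0.25 log2). The transcription factors DDIT3 and ATF3 had differences of similar size, but their groups overlapped. DDIT3, also called CHOP, was 18.6, 21.4 and 17.2 CPM and 17.5, 15.96 and 12.9 CPM (-0.30 log2). ATF3 was 20.6, 28.04 and 24.4 CPM and 18.3, 23.2 and 19.6 CPM (-0.26 log2). The messenger of ATF4, which is controlled mainly in translation, differed by -0.06 (log2, a choice made after its value was seen). The list median was -0.08, against 0.09 with vehicle and -0.03 with cocaine.

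Among p53 targets, 7 of 20 were below without overlap (35%, against 7.47% of all genes), and the median was -0.14 (log2). CDKN1A was called by DESeq2 (adjusted p = 0.011), among its 33 calls over all 18913 genes, and by edgeR on only the 6 libraries (0.0305). By edgeR over all 18 libraries none was called, and 5 were lower at an unadjusted p under 0.05. Beside CDKN1A these were led by GDF15, a secreted stress cytokine, at 5.44, 4.75 and 6.78 CPM and 2.94, 3.68 and 3.01 CPM with acetylcysteine (-0.82 log2, SE 0.35). RRM2B, the p53-induced ribonucleotide reductase subunit, differed by -0.33 and ZMAT3, an RNA-binding target, by -0.35 (log2). MDM2, the p53 ubiquitin ligase and its classic target, differed by -0.02 (log2) with overlap and was chosen after its value was seen. The medians with vehicle and cocaine were 0.04 and -0.09.

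Of 36 hypoxia and glycolysis genes, 8 were below without overlap (22.2%, against 7.47% of all genes) and none above. Values were under 0 in 28 of the 36, with a median of -0.07 (log2). None was called by edgeR and 7 were lower at an unadjusted p under 0.05. Among its 33 calls over all 18913 genes, DESeq2 called BHLHE40 (adjusted p = 0.0264) and KDM3A, a histone demethylase named for that call (0.0492). ADM, the vasodilator peptide adrenomedullin, was 11.6, 14.7 and 9.85 CPM with dopamine and 6.34, 9.64 and 3.93 CPM with acetylcysteine (-0.86 log2, SE 0.26, adjusted p = 0.43, edgeR). BHLHE40, a repressor induced by hypoxia that also acts in the clock, was 34.7, 42.4 and 38.7 CPM and 28.1, 30.4 and 23.7 CPM (-0.50 log2, adjusted p = 0.28, edgeR). PPP1R3C, which promotes glycogen synthesis, differed by -0.47 and ANKRD37 by -0.40, again with groups apart. The oxygen-sensing hydroxylase EGLN3, itself a hypoxia target and chosen after its values were seen, overlapped at 0.17 (log2).

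Genes of thiol and redox balance differed by small amounts between the 2 groups, mostly toward lower values with acetylcysteine. Values were under 0 in 20 of 25 NRF2 targets, 26 of 38 glutathione and cysteine genes and 22 of 30 reactive oxygen enzymes. Of 25 NRF2 targets, 4 were below without overlap (16%, against 7.47% of all genes) and 1 above (4%, against 7.65%), none was called by edgeR or DESeq2, 3 were lower and 1 higher at an unadjusted p under 0.05, and the median was -0.06 (log2). FTL, the ferritin light chain, was 432, 429.9 and 422 CPM with dopamine and 391, 368 and 345 CPM with acetylcysteine (-0.22 log2, adjusted p = 0.392, edgeR). HMOX1, the inducible haem oxygenase, was 6.12, 7.72 and 6.08 CPM and 5.78, 5.42 and 4.26 CPM (-0.36 log2, adjusted p = 0.47, edgeR), and NQO1 differed by -0.21 (log2). All 3 were lower in every acetylcysteine library.

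GCLC, the catalytic subunit of the first enzyme of glutathione synthesis, was 40.3, 41.2 and 40.5 CPM with dopamine and 34.3, 37.2 and 35.1 CPM with acetylcysteine (-0.19 log2, adjusted p = 0.384, edgeR), while its modifier GCLM overlapped at -0.14 (log2). SLC7A11, which imports cystine, was 36.2, 38.7 and 35.4 CPM and 28.3, 38.2 and 33.0 CPM with overlap. TXNRD1, the cytosolic thioredoxin reductase, differed by -0.05 (log2), and TXNIP, the thioredoxin inhibitor, by -0.04 with dopamine and -0.26 with vehicle (adjusted p = 0.729, edgeR). Over 38 glutathione and cysteine genes, 4 were below (10.5%) and 3 above (7.89%) without overlap, shares near the 7.47% and 7.65% of all genes. The 30 enzymes that make or remove reactive oxygen species had 3 below (10%, against 7.47%) and none above. CAT, the catalase gene, reached at most 0.65 CPM in any library and was not tested.

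Ribosomal protein genes, which code for the structural proteins of the ribosome, had slightly lower values with acetylcysteine almost throughout. The list had 43 of 44 members at a negative value, with a median of -0.09 (log2). Without overlap, 21 were lower (47.7%, against 7.47% of all genes and 9.17% of those at 5 CPM or more). Only 3 of the 44 were lower at an unadjusted p under 0.05 by edgeR (against 4.24% of all genes), and none was called by edgeR or DESeq2. RPL27, of the large subunit, was 245, 225 and 220.2 CPM with dopamine and 204, 206 and 203 CPM with acetylcysteine (-0.17 log2, adjusted p = 0.541, edgeR), without overlap. The median with cocaine was the same size, at -0.10, and with vehicle it was 0.04. Total reads moved along with the groups, at 27879196 to 30327891 in the dopamine libraries and 23789195 to 26601781 with acetylcysteine, and their part in these small differences was not tested.

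On the higher side no gene passed edgeR's test, and 837 had an unadjusted p under 0.05. NCOA5, a coregulator of nuclear receptors, came nearest, at 60.0, 53.9 and 58.8 CPM with dopamine and 73.2, 70.1 and 74.2 CPM with acetylcysteine (0.33 log2, SE 0.05, adjusted p = 0.0612, edgeR). DESeq2 called it (adjusted p = 0.000114), as did edgeR without the expression filter (adjusted p = 0.0484). CHPF2, a chondroitin synthesis enzyme, was 30.7, 30.8 and 31.0 CPM and 36.2, 37.8 and 38.5 CPM (0.28 log2), and RIPK1, the death receptor kinase, was 13.5, 13.9 and 14.6 CPM and 17.9, 16.5 and 18.5 CPM (0.33 log2). The groups were apart for each.

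FBXL6 (0.54), CCDC57 (0.24), ZC3H4, which limits transcription of noncoding RNA (0.27), IGSF1 (0.30) and ZNF335, a zinc finger factor needed in cortical progenitors (0.29), completed the named protein-coding genes (log2, adjusted p between 0.23 and 0.28, edgeR). PRKXP1 (0.55) and FAR2P1 (0.50) are pseudogenes that can share reads with their parent genes and are uncertain. The uncharacterised loci LOC100132062 (0.39) and LOC100294362 (0.48) filled the set.

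Most genes of neuronal signalling had values above 0, and none was called by edgeR or DESeq2. Of 15 voltage-gated calcium channel genes, 3 were above without overlap (20%, against 7.65% of all genes) and none below, with a median of 0.11 (log2). By edgeR, 4 of them were higher at an unadjusted p under 0.05 (against 4.43% of all genes) and none lower. CACNA1E, the R-type pore subunit, was 309, 263 and 322 CPM with dopamine and 354, 362 and 354 CPM with acetylcysteine (0.26 log2, adjusted p = 0.454, edgeR). CACNA1A, the P/Q-type subunit, differed by 0.19. Of 21 glutamate receptor genes, 4 were above (19%, against 7.65%) and none below, with a median of 0.12. Only 1 of the 21 was higher at an unadjusted p under 0.05, and none lower. The kainate receptor GRIK3 was 182, 165 and 184 CPM and 224, 211 and 199.5 CPM (0.26 log2, adjusted p = 0.565, edgeR), and the metabotropic receptor GRM5 differed by 0.22, both without overlap. Of 14 GABA receptor genes, 9 had values above 0 (median 0.01). None of the 14 lay fully above or below, and none had an unadjusted p under 0.05.

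Synaptic genes had 4 of 28 above (14.3%, against 7.65% of all genes) and 2 below (7.14%, against 7.47%), led by the scaffold SHANK1 at 75.0, 68.8 and 74.2 CPM and 83.1, 86.5 and 82.7 CPM (0.21 log2). At an unadjusted p under 0.05 (edgeR), 1 of the 28 was higher and 1 lower. SYN1, a vesicle protein, overlapped. Of 30 axon guidance genes, 4 were above (13.3%, against 7.65% of all genes) and none below, and 5 were higher at an unadjusted p under 0.05. The semaphorin SEMA3E was 9.51, 7.79 and 9.22 CPM and 14.2, 10.9 and 13.0 CPM (0.52 log2, adjusted p = 0.484, edgeR) and SEMA6A differed by 0.24. NRP1, a co-receptor of other semaphorins, overlapped at 71.2, 65.8 and 87.9 CPM and 88.1, 85.9 and 88.7 CPM. The ephrin receptor EPHA3 had -0.27 (log2) with overlap. With vehicle the medians of the calcium channel and glutamate receptor lists were -0.08 and -0.03, and with cocaine 0.08 and 0.09.

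The dopamine system itself did not separate. None of 22 measured genes for dopamine receptors and monoamine handling lay fully above or below, none was called by edgeR or DESeq2, and none had an unadjusted p under 0.05 (median 0.00). The receptor DRD1 was 2.49, 2.41 and 3.01 CPM with dopamine and 2.05, 3.87 and 2.63 CPM with acetylcysteine, and DRD2 was 7.17, 6.70 and 6.35 CPM and 10.0, 6.43 and 6.60 CPM. The highest DRD2 value belonged to acetylcysteine replicate 1. The degrading enzymes MAOA (-0.01) and MAOB (0.10), and TH, the rate-limiting enzyme of synthesis (-0.29, all log2), overlapped, and SLC6A3, the dopamine transporter, stayed at or under 0.447 CPM and was not tested.

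The genes that dopamine moved most against vehicle, at their levels with acetylcysteine, are given next for their own sake, since both comparisons use the same dopamine libraries. Dopamine against vehicle had 133 calls (0.703%), 105 higher (0.555%) and 28 lower (0.148%). These calls were picked for high or low values in the same dopamine libraries. Values nearer to vehicle with acetylcysteine are therefore partly fixed by that choice. Over all genes, 7.47% lay fully below and 7.65% fully above. Of the 10 highest calls, HSPA6, ADM, GDF15, PPP1R3C and BHLHE40 were all lower in every acetylcysteine library, as above. HIST1H1C, a linker histone, was 3.46, 4.78 and 4.15 CPM with vehicle, 10.8, 10.8 and 11.8 CPM with dopamine and 8.24, 11.3 and 7.11 CPM with acetylcysteine added. It overlapped between the last pair of groups, as did TNFRSF10D, a decoy death receptor (-0.17 log2), ATF3 and DDIT3. CCDC9 was apart by a small amount, at 24.4, 25.1 and 24.7 CPM and 21.2, 23.9 and 22.4 CPM (-0.13 log2).

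Of the 10 lowest calls, OLIG1, a factor of the oligodendrocyte lineage, was 4.74, 6.399 and 5.20 CPM with vehicle, 2.67, 1.36 and 2.41 CPM with dopamine and 4.29, 3.52 and 3.59 CPM with acetylcysteine added (0.82 log2 against dopamine, adjusted p = 0.406, edgeR). COL15A1, a basement membrane collagen, was 4.79, 4.12 and 4.86 CPM and 8.35, 5.69 and 7.94 CPM (0.67 log2). CD74, the invariant chain, differed by 0.68, FAR2P1 and FBXL6 as above, and ACKR1 by 0.27. NKX2-2, the ventral patterning factor, overlapped at 9.98, 9.71 and 16.5 CPM and 15.2, 13.9 and 14.6 CPM and stood at 20.8, 32.2 and 26.1 CPM with vehicle. HMCN2 (0.14 log2) overlapped as well, and the uncharacterised LOC101928521 had 8.79, 9.01 and 7.44 CPM with dopamine and 11.3, 11.3 and 12.8 CPM with acetylcysteine.

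Set against plain vehicle, the libraries with dopamine and acetylcysteine had 2 calls (0.0106%). Against vehicle with acetylcysteine they had 1 (0.00529%), BIRC7, of the inhibitor of apoptosis family, which was also 1 of the 2. Both genes were chosen for having passed these tests. BIRC7 is a gene of low level here, at 0.113, 0.236 and 0.144 CPM with vehicle, 0.212, 0.213 and 0.193 CPM with vehicle and acetylcysteine, 0.937, 0.873 and 0.496 CPM with dopamine and 1.12, 1.201 and 1.13 CPM with both. The log2 difference was 2.76 against vehicle (adjusted p = 0.00572, edgeR) and 2.45 against vehicle with acetylcysteine (adjusted p = 0.0191, edgeR). The other was HS3ST3B1, a heparan sulfate sulfotransferase, at 13.2, 11.3 and 12.3 CPM with vehicle and 16.9, 20.5 and 20.5 CPM with dopamine and acetylcysteine (0.66 log2). Over the heat shock, unfolded protein response and p53 lists, the medians were 0.02, 0.01 and 0.05 for dopamine with acetylcysteine against vehicle and 0.26, 0.12 and 0.23 for dopamine against vehicle. Over the integrated stress response, immediate early and hypoxia lists they were 0.13, 0.14 and 0.07, and 0.24, 0.22 and 0.15 in the same order. Both comparisons use the same vehicle libraries and share libraries with the main comparison, so these medians are given side by side only.

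Single libraries stood apart for genes of other tissues. In acetylcysteine replicate 3, the pigment cell genes PMEL, TYRP1 and DCT reached 29.4, 26.2 and 22.1 CPM, while the other 5 libraries held at most 2.56 CPM of any of them, and its summed pigment and eye list was 166.5 CPM against 74.0 to 114.2 CPM in those 5. HOXB8, of the posterior HOX group, was 0.597, 3.37 and 17.4 CPM with acetylcysteine and 0.937, 2.10 and 0.595 CPM with dopamine. In dopamine replicate 3, the midbrain genes PAX5 and EN2 reached 81.7 and 22.6 CPM, against at most 10.7 and 2.59 CPM in the other libraries of both groups. Of the 9 tested pigment and eye genes none was called and none separated the groups. Without the replicate that stood apart, PMEL went from 3.08 to -0.73, TYRP1 from 3.76 to -0.59, DCT from 2.11 to -0.04, PAX5 from -2.31 to 0.50 and EN2 from -2.02 to 0.63 (log2).

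**Figure D5:**
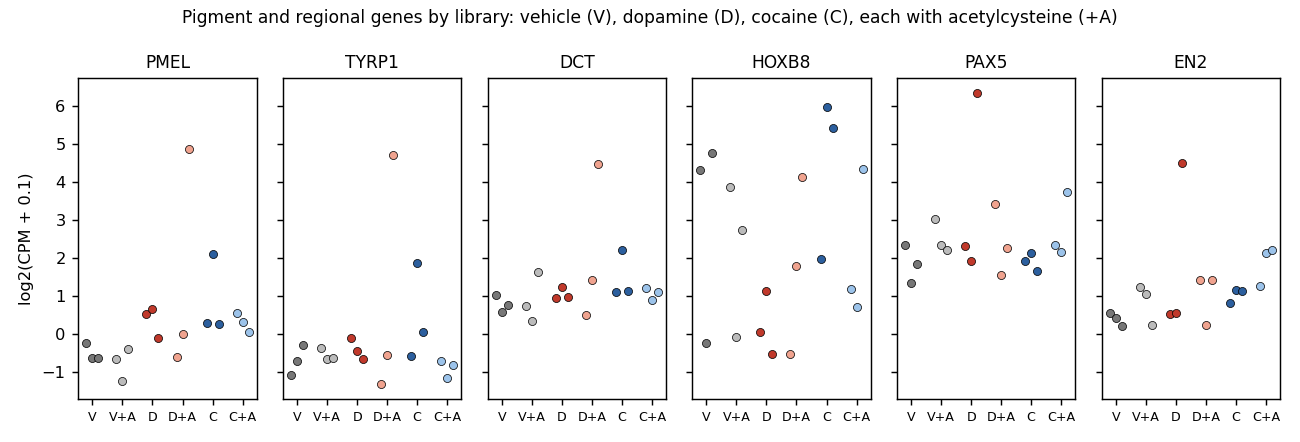
Level of 3 pigment genes, 1 HOX gene and 2 midbrain genes in all 18 libraries, as log2 of CPM plus 0.1 (vertical axis), by group: vehicle (V), dopamine (D), cocaine (C), each also with acetylcysteine (+A). One D+A library is high for PMEL, TYRP1 and DCT and one D library for PAX5 and EN2.

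Markers of the main cell types overlapped in their sums. The summed neuronal list was 13350 to 14590 CPM with dopamine and 13730 to 14840 CPM with acetylcysteine, and none of its 17 genes separated the groups. Radial glia genes summed to 3814 to 3953 CPM and 3379 to 4017 CPM, and astrocyte genes to 1302 to 1658 CPM and 1096 to 1539 CPM. Ventral forebrain genes summed to 762.4 to 887.8 CPM and 880.8 to 965.3 CPM, with DLX1, a factor of interneuron development, at 27.1, 14.7 and 27.4 CPM and 38.1, 29.98 and 29.9 CPM (0.50 log2, adjusted p = 0.698, edgeR). PDGFRA, a receptor of oligodendrocyte precursors, was 5.01, 5.66 and 5.29 CPM and 7.05, 7.13 and 8.99 CPM (0.54 log2, adjusted p = 0.647, edgeR). The summed microglia and endothelium lists were at most 5.66 and 18.7 CPM in these 6 libraries. The part of these marker differences in the gene values above was not tested.

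Acetylcysteine gave no calls by edgeR in the other settings, at 1081 unadjusted p under 0.05 with vehicle and 608 with cocaine (smallest adjusted p 0.729 and 1.00), against 1639 with dopamine. DESeq2 was not run on acetylcysteine with vehicle or with cocaine, so its calls with dopamine have no counterpart there. The difference between the acetylcysteine effects with dopamine and with vehicle had 1 call by edgeR and 1580 at an unadjusted p under 0.05 (8.35%). The difference between dopamine and cocaine had 0 calls by edgeR (0%) and 958 at an unadjusted p under 0.05 (5.07%), and 1 by DESeq2, which was DDIT4.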

How the data were processed

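The authors deposited a table of raw counts per gene for 18 libraries of the H9 line (a second line was not analysed here) and a table of TPM (scaled by gene length and library size), from which the means of DDIT4 were taken. Per the submitters' processing notes the build was GRCh38 (hg38). The aligner, counting tool and strand setting were not given in the sources used here, so overlapping antisense genes could share reads. Names a spreadsheet had turned into dates (26 tested) are not named. Counts of 18913 genes with a minimum count of 10 (filterByExpr) were fitted with edgeR 4.0.16 in R 4.3.3 (TMM scaling, quasi-likelihood test, robust, two-sided) over all 18 libraries with 1 mean per group. Adjusted p is Benjamini-Hochberg over all genes tested, called under 0.05. CPM are TMM-scaled. Alternatives used DESeq2 1.42.0 and limma 3.58.1 (voom), RLE factors, no filter, a minimum count of 30, only the libraries compared, and each library left out. Scripts were tested on simulated data. Replicates of a group differed by more than counting noise in every pair (chi-square per gene 3.54 to 21.7), so none was merged.

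Named genes are the called genes, the 12 non-overlapping genes of smallest p per direction at 5 CPM or more (filling up the calls), up to 4 members of each of 45 lists with the largest change at 5 CPM or more, the 10 highest and lowest calls of dopamine against vehicle, and a panel of 35 redox, stress and dopamine genes. Other named genes, beside those of the tissue check, are marked as chosen after their values were seen. The comparison, the lists and the tests were chosen with earlier results of these data known. "Without overlap" means that every library of a group lies beyond every library of the other. No set test was run. A few genes that the rule names are not reported here. The tables of the authors' own comparisons with control groups were not used. Gene positions and promoters are from RefSeq (GRCh38.p14), where 844 of 847 names matched. The depth of 23789195 to 30327891 reads limits genes near the filter.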

Additional observations from a re-analysis of the deposited data

Results flagged for a closer look

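DDIT4 stood out because its acetylcysteine effects with dopamine and with vehicle differed by a test of the difference itself. The acetylcysteine effect with dopamine minus that with vehicle was -0.819 (log2, SE 0.10, adjusted p = 0.00457, edgeR). It was lower in 3 of 3 libraries with dopamine and higher in 3 of 3 with vehicle, and the difference was called in all 19 alternatives run, with adjusted p between 5.92e-10 and 0.0333. Groups of 3 libraries are too small for a test of single outlying libraries.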

How the results depend on the processing

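The count of genes changed between dopamine with and without acetylcysteine was 1 by edgeR, 33 with DESeq2 (12 higher, 21 lower), 3 without an expression filter, 2 with a minimum count of 30 and 3 with only the 6 libraries in the fit, and it was 1 with RLE factors, with limma voom and with only the 12 dopamine and control libraries. Leaving out each of the 6 libraries gave 0 to 1 genes, and the gene called without dopamine replicate 1 was the antisense RNA SNRK-AS1, higher at 1.92 (log2, adjusted p = 0.0232, edgeR). The vehicle difference stayed at 1 gene, DDIT4, except for 18 with DESeq2 (8 higher, 10 lower), and leaving out each library gave 1 to 1. The cocaine difference had 0 genes except for 1 with DESeq2, and 0 to 0 on leaving out libraries. Why DESeq2 calls more genes was not tested. DDIT4 was called in 8 of 13 alternatives. Among 1418 values of 110 named genes over 13 alternatives, 1370 kept their sign and side of the threshold, 28 gained and 5 lost a call, and 15 values of 12 genes turned sign, all on leaving out 1 library. Over the 6 libraries left out, the log2 differences of these genes ran from -0.043 to 2.63 for DCT, -0.17 to 0.305 for DRD1, -0.049 to 0.308 for DRD2, -2.53 to 0.625 for EN2, -0.049 to 0.028 for FASN, -0.15 to 0.268 for HMCN2, -0.03 to 0.004 for MAOA, -0.007 to 0.181 for MAOB, -0.064 to 0.009 for MDM2, -3.01 to 0.504 for PAX5, -0.733 to 3.64 for PMEL and -0.587 to 4.33 for TYRP1. Fits with only 12 libraries and without single control or cocaine libraries were chosen after seeing the data. No paired analysis was possible because the labels give no replicate number shared between groups.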

Other observations

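Cell cycle genes were below without overlap in 7 of 25 members (28%, against 7.47% of all genes), none above, 1 lower at an unadjusted p under 0.05 and none called by edgeR or DESeq2, with a median of -0.13 (log2), and their sum was 591.8 to 675.8 CPM with dopamine and 475.5 to 608.9 CPM with acetylcysteine. Clock genes had 5 of 16 below (31.2%, against 7.47%), among them PER3 at 33.0, 34.3 and 33.8 CPM and 29.1, 29.8 and 30.5 CPM (-0.18 log2, adjusted p = 0.341, edgeR) and the nuclear receptor NR1D1 (-0.30 log2). Immediate early genes split: JUNB was 9.69, 9.81 and 8.89 CPM and 6.97, 7.90 and 5.68 CPM (-0.46 log2), JUN, chosen after its values were seen, was 162, 143 and 152 CPM and 184, 177 and 166 CPM (0.21 log2), and FOS overlapped (-0.15 log2). None of these genes passed edgeR's test.

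Metallothionein and zinc genes had 4 of 9 above without overlap (44.4%, against 7.65% of all genes) and none below, but those 4 were low genes, led in level by MT2A at 2.92, 2.76 and 2.98 CPM and 3.13, 4.07 and 3.59 CPM (0.32 log2, chosen after its values were seen). None of the 9 had an unadjusted p under 0.05 by edgeR. With vehicle the list median was 0.26 and with cocaine -0.17, beside 0.32 with dopamine. MGST1, a microsomal glutathione transferase, was 27.3, 29.1 and 27.4 CPM and 21.0, 24.7 and 22.3 CPM (-0.30 log2), and CSAD, the decarboxylase that makes hypotaurine from cysteine sulfinate, was 106, 102 and 101 CPM and 108, 119 and 126 CPM (0.19 log2). Neither passed edgeR's test. Proteasome subunits and nuclear genes of oxidative phosphorylation had medians of -0.04 and -0.03 with 3 of 26 (11.5%) and 4 of 33 (12.1%) below without overlap, shares near the 9.17% of genes at 5 CPM or more.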
